A study of Homo sapiens with 2 samples.

Results

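Messenger RNA of 9 genes that serve as common readouts of the transcription factor NF-kappaB was compared between TIVE-LTC cells exposed to ABC294640 and TIVE-LTC cells exposed to vehicle. The genes were taken as 10 named probes of an Illumina BeadChip, out of 47318 probes with a signal and 20045 genes named on it, and the platform's annotation gave each of the 10 probes the gene it had been chosen for. The chemokines were CXCL8 (interleukin 8, with 2 probes), CXCL2, CXCL1 and CCL2, the cytokine was IL6, the adhesion molecules were ICAM1 and VCAM1, and the inhibitors of the pathway were NFKBIA and TNFAIP3.

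The first group had received ABC294640, an inhibitor of sphingosine kinase 2, at 60 µM for 24 h, and the second had received vehicle for 24 h. Both were cultures of 1 cell line, grown in the same serum-supplemented medium. The line is described as human umbilical vein endothelial cells that had been immortalized with telomerase and that carry Kaposi's sarcoma-associated herpesvirus (KSHV) over the long term. The comparison addressed what the inhibitor did to gene expression in these infected cells. Each group had 1 array, which leaves the values without replicate error and the differences without a test, and a difference between the 2 cultures cannot be told apart from one between the 2 conditions. The cells' label was checked against 12 endothelial genes, of which only TEK was detected, at 76.7 intensity units with ABC294640 and 82.1 with vehicle, next to the lowest detected signals of 76.2 and 81.2. The probes of PECAM1, CDH5, VWF and KDR, which define endothelium, were not detected on either array. None of the 6 epithelial genes was detected. Of 7 leukocyte genes with a probe 4 were detected, without PTPRC, the pan-leukocyte marker, and of 8 fibroblast or mural genes 3 were. CD68 read 1099.5 units with ABC294640 and 1093.1 with vehicle on its probe ILMN_1714861, and ACTA2 read 1549.7 and 2175.2 units in the same order. The markers read here thus did not bear out the endothelial label, and the identity of the cells was not tested further.

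NF-kappaB is held in the cytoplasm by inhibitor proteins, and cytokines, danger signals and several viral proteins release it by activating the IKK kinase complex. In the nucleus it binds kappaB sites and switches on genes for cytokines, chemokines and adhesion molecules, and also genes for its own inhibitors, which then end the response. In endothelium the same programme lets the vessel wall recruit and hold leukocytes, and KSHV is known to engage the pathway during latency.

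The 200 bases before the transcription start of 6 of these genes are shown because the results divide them: the first 5 genes were higher with ABC294640 and VCAM1 was not. The sequences are from RefSeq on GRCh38.p14, run 5′ to 3′ on the gene's own strand and end at the last base before the start. Capitals mark matches to a kappaB motif.
CXCL8 (chr4:73740369-73740568, plus strand): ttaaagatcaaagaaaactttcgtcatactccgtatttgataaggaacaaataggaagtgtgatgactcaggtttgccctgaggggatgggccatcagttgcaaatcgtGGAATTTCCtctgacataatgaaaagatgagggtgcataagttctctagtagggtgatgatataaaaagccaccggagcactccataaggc
CXCL2 (chr4:74099196-74099395, minus strand): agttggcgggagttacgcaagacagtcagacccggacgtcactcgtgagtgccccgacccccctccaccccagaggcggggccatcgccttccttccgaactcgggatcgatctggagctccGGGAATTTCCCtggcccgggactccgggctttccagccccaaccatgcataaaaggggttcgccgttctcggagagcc
CXCL1 (chr4:73869193-73869392, plus strand): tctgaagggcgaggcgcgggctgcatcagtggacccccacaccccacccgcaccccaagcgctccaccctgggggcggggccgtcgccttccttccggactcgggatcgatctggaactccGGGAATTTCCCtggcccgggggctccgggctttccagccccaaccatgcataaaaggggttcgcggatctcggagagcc
IL6 (chr7:22727000-22727199, plus strand): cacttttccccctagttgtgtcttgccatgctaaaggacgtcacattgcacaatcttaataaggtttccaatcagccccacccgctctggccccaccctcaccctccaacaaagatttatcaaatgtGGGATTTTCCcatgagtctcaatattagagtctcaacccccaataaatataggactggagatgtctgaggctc
NFKBIA (chr14:35404750-35404949, minus strand): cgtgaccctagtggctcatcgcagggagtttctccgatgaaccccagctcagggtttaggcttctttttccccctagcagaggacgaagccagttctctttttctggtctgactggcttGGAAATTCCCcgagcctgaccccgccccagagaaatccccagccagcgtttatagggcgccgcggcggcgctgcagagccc
VCAM1 (chr1:100719542-100719741, plus strand): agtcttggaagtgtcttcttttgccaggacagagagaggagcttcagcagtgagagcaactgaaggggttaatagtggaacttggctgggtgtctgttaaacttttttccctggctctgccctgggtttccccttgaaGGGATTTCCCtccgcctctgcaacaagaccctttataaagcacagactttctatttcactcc
The motifs searched were GGAANTTCC and the longer NF-kappaB consensus, on both strands, over the 250 bases before each start. They can overlap, and in CXCL1, CXCL2 and NFKBIA they do. RefSeq's table held 8 of the 9 genes, without CCL2, and each of the 8 had a match to at least 1 of the motifs, against 5.8% of the 35116 promoters in that table. For GGAANTTCC alone the numbers were 5 of 8 and 0.826%. The genes had been chosen as common readouts of NF-kappaB, so these shares reflect that choice and say nothing about the arrays. The match of CXCL8 lay 91 to 83 bases before the start, that of IL6 73 to 64 bases, that of NFKBIA 81 to 72 bases and that of VCAM1 62 to 53 bases. CXCL1 and CXCL2 carried the same 11 letters, at 79 to 69 and 78 to 68 bases, and their windows had 78.2% identical positions in a global alignment. ICAM1 had its match at 186 to 178 bases, and TNFAIP3 had matches at 67 to 58 and 55 to 46 bases. Genes on both sides of the 2-fold line thus carried a match, and a match in these letters is not evidence of binding.

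CXCL8, CXCL2, IL6 and CXCL1 were higher with ABC294640, most of all CXCL8 and CXCL2, and CCL2 was not detected, while the adhesion molecules ICAM1 and VCAM1 differed little between the arrays. The inhibitor NFKBIA was higher too, and TNFAIP3 was higher by less than 2-fold. Of the 10 probes, 9 were detected on both arrays, meaning that under 1% of the negative control beads were as bright. A 2-fold or larger increase with ABC294640 was seen for 6 of these 9 probes and a 2-fold or larger decrease for 0. Over all 18233 probes detected on at least 1 array the shares were 7.38% higher and 6.96% lower. At least 4-fold higher were 4 of the 9 probes and at least 4-fold lower 0, against 1.59% and 0.263% of all detected probes. The 9 probes had a median log2 ratio of 1.77, against -0.07 for all detected probes. CXCL8 enters these counts and this median with 2 probes. With each gene counted once, by its brightest probe, 5 of the 8 detected genes were at least 2-fold higher and 0 lower. Over the 10883 named genes detected the shares were 6.99% and 8.36%. Ratios are ABC294640 over vehicle after background correction and quantile normalization. A higher ratio may reflect more transcript per cell or more cells that make it, which cannot be told apart in RNA of whole cultures.

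**Figure D1:**
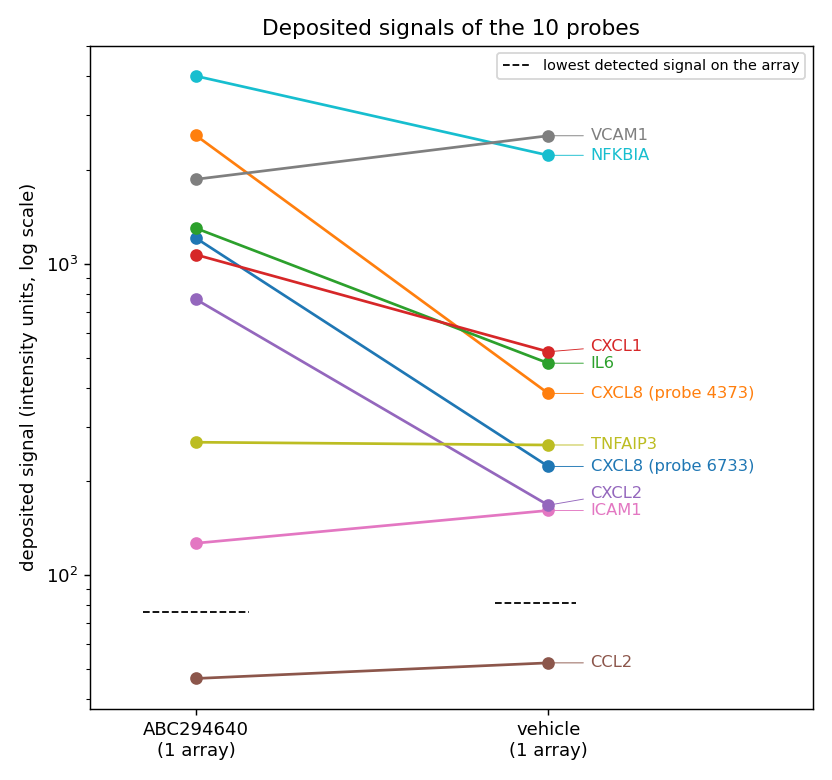
Deposited signal of each of the 10 probes (intensity units, log scale) on the ABC294640 array and the vehicle array, 1 point per array, joined by a line. Both CXCL8 probes, CXCL2, IL6, CXCL1 and NFKBIA are brighter on the ABC294640 array, VCAM1 and ICAM1 are dimmer, and CCL2 lies below the dashed lines that mark the lowest detected signals, 76.2 and 81.2 units.

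CXCL8 encodes interleukin 8, the main attractant of neutrophils and a growth signal for endothelial cells. Its probe ILMN_2184373 read 2582.2 intensity units with ABC294640 and 383.5 with vehicle, and its probe ILMN_1666733 read 1208.7 and 223.5 units in the same order. The 2 probes thus moved together, with deposited signals 6.73-fold and 5.41-fold higher. After normalization their log2 ratios were 3.41 and 3.31, or 10.6-fold and 9.93-fold. Only 54 and 62 of the detected probes had a higher ratio.

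CXCL2, another neutrophil attractant that acts through the same receptor family, read 768.8 units with ABC294640 and 167.8 with vehicle. Its log2 ratio was 3.20, or 9.18-fold. CXCL1, the close paralog of CXCL2, read 1069.4 units with ABC294640 and 521.9 with vehicle, a log2 ratio of 1.77 or 3.42-fold. The paralogs therefore shared the direction but not the size. Their transcripts are similar in sequence, and whether either probe also binds the other transcript was not tested.

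IL6 encodes interleukin 6, which signals through the shared receptor subunit encoded by IL6ST. The probe of IL6 read 1300.5 units with ABC294640 and 479.5 with vehicle, and its log2 ratio was 2.17, or 4.49-fold. The probe of CCL2, a monocyte attractant that endothelial cells commonly secrete, read 46.6 units with ABC294640 and 52.3 with vehicle. Its detection values were 0.844 and 0.655, so the array gave no level above background for CCL2 in either culture and no fold is given.

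VCAM1 and ICAM1 bind the integrins of leukocytes and are classical inducible targets of NF-kappaB on endothelium. The VCAM1 probe ILMN_2307903 read 1868.1 units with ABC294640 and 2577.1 with vehicle, a 1.38-fold lower deposited signal, and its log2 ratio after normalization was -0.07. A further pair of VCAM1 probes lay outside the chosen 10. Of these, ILMN_1766955 read 493.2 and 742.9 units and ILMN_2325763 read 126.9 and 166.8 units, ABC294640 first, with log2 ratios under 0.25 after quantile normalization. All 3 VCAM1 probes were dimmer on the ABC294640 array as deposited, and all were within 1.5-fold of equal after scaling. ICAM1 read 126.7 units with ABC294640 and 161.4 with vehicle, with a log2 ratio of 0.29. Its sign turned to -0.45 without normalization between the arrays.

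NFKBIA encodes I-kappaB-alpha, the inhibitor that holds NF-kappaB in the cytoplasm and is itself a rapid target of it. The probe of NFKBIA read 4007.2 units with ABC294640 and 2230.3 with vehicle, a log2 ratio of 1.14 or 2.20-fold. TNFAIP3 encodes A20, a ubiquitin-editing enzyme that shuts off signalling to the IKK complex. Its probe read 267.3 units with ABC294640 and 261.9 with vehicle, nearly the same as deposited. After normalization the log2 ratio of TNFAIP3 was 0.83, or 1.78-fold, and without normalization between the arrays it was 0.05, a setting in which the ratios of all detected probes are shifted down.

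The probes of like brightness give a scale for these ratios, though their spread is one over different probes, which replicates would not share. Among the 1000 probes nearest in mean signal, the scaled median absolute deviation of the log2 ratio ran from 0.61 for NFKBIA to 0.76 for ICAM1. The ratio of CXCL8 was above that of 99.5% and 99.4% of such probes, CXCL2 above 99.3%, IL6 above 98.0%, CXCL1 above 97.3% and NFKBIA above 92.6%. TNFAIP3 was above 88.6%, ICAM1 above 66.0% and VCAM1 above 49.3%. The order of the ratios therefore ran from the neutrophil attractants and IL6 through the inhibitors to the adhesion molecules, whose ratios lay in the middle of their neighbours.

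**Figure D2:**
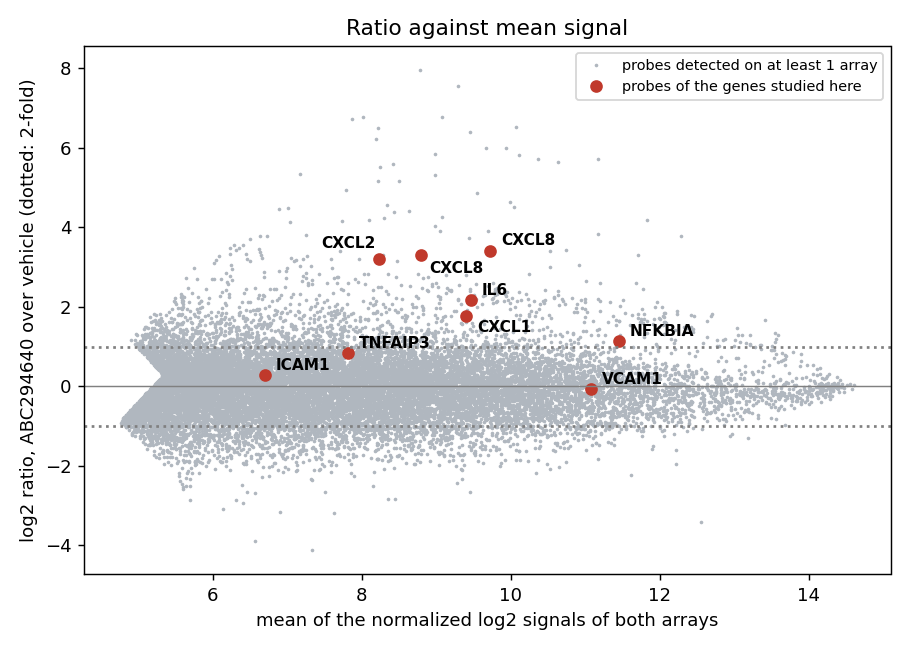
Log2 ratio (ABC294640 over vehicle) against the mean normalized log2 signal of both arrays for the 18233 probes detected on at least 1 array (grey) and the 9 detected probes of the genes studied (red). CXCL8 and CXCL2 lie near the upper edge of probes of like signal, and VCAM1 and ICAM1 lie in the middle of the cloud.

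The ABC294640 array was dimmer in its middle range, and the scaling decides what counts as equal. The median log2 ratio of all detected probes was -0.65 without normalization between the arrays and 0.16 with median scaling. Relative to that median the ratios moved little: CXCL8 lay 2.95 to 3.55 above it over both probes and all 7 ways of processing, CXCL2 2.75 to 3.34, IL6 2.00 to 2.23, CXCL1 1.64 to 1.84, NFKBIA 1.17 to 1.51 and TNFAIP3 0.70 to 0.90. ICAM1 lay 0.20 to 0.35 above it. VCAM1 lay between 0.02 below and 0.18 above it. Median scaling only shifts each array by a constant. Its distances from the median therefore equal those without normalization between the arrays by construction, and that agreement is no support.

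**Figure D3:**
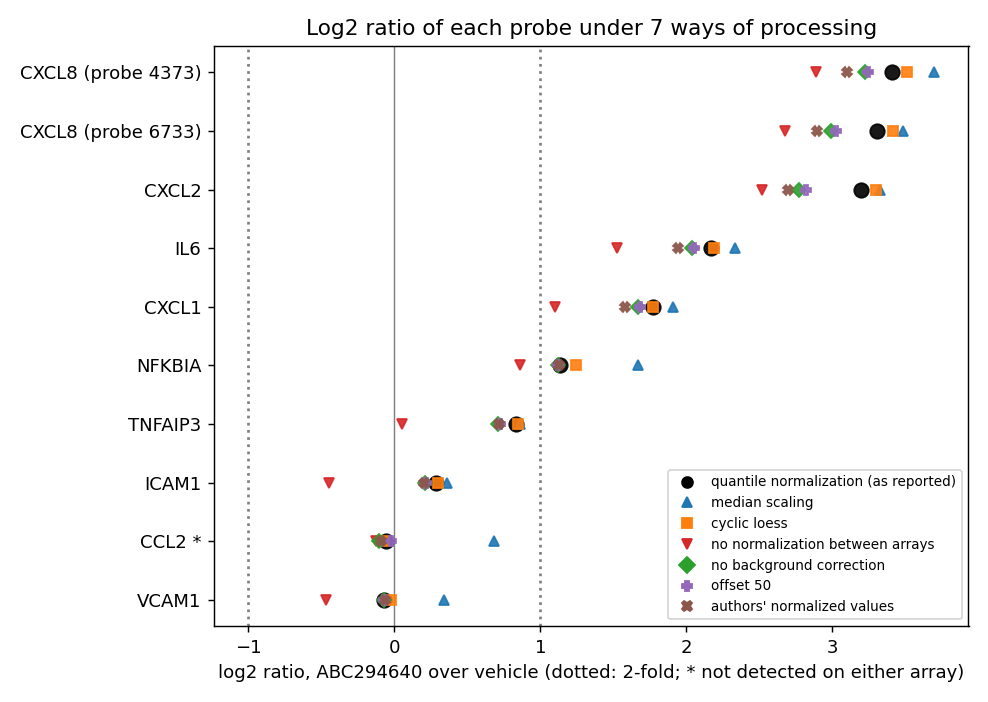
Log2 ratio (ABC294640 over vehicle) of each of the 10 probes under 7 ways of processing, 1 symbol for each, with dotted lines at 2-fold. Both CXCL8 probes, CXCL2, IL6 and CXCL1 stay right of the 2-fold line in all 7, NFKBIA falls to 0.86 without normalization between the arrays, and ICAM1 and VCAM1 have symbols on both sides of 0.

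The other genes of the pathway were described from lists ordered by role, each gene by its brightest probe. Over the 10883 named genes detected on at least 1 array, 6.99% were at least 2-fold higher and 8.36% at least 2-fold lower, with a median log2 ratio of -0.10. Among further cytokine and chemokine ligands, 8 genes were detected beside the 4 described above, of which 5 were at least 2-fold higher and 0 lower. Their median log2 ratio was 1.32, or 1.20 with the 2 genes detected only with ABC294640 set to their bound.

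CCL5, an attractant of T cells and monocytes, read 495.3 units with ABC294640 and 118.4 with vehicle on its brighter probe ILMN_2098126, a log2 ratio of 3.21. Its dimmer probe ILMN_1773352 read 90.4 units with ABC294640 and 51.9 with vehicle, where it was not detected, and was at least 1.77-fold higher. CX3CL1, the membrane-bound chemokine fractalkine, read 282.4 units with ABC294640 and 72.9 with vehicle, where it was not detected, and was at least 8.76-fold higher after quantile normalization. Over the 7 ways of processing that bound ran from 4.77-fold to 10.5-fold. IL32, a proinflammatory cytokine, read 348.6 and 286.4 units with ABC294640 and 118.9 and 98.7 with vehicle on its 2 probes, with log2 ratios of 2.68 and 2.74. These 3 genes had ratios in the range of CXCL8 and CXCL2 or below it.

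CCL20, an attractant of dendritic cells and lymphocytes, had a log2 ratio of 1.22 and CXCL5, a neutrophil attractant, 1.18, but without normalization between the arrays they dropped to 0.43 and 0.65. IL11, IL15 and LIF did not pass 2-fold, with IL11 at least 1.76-fold higher (a bound of 1.27-fold to 2.23-fold over the 7 ways of processing) and log2 ratios of 0.20 and -0.18 for IL15 and LIF. The initiating cytokines TNF, IL1A and IL1B were not detected on either array. CXCL10, CXCL11, CXCL3 and CXCL6 were not detected either. At a detection threshold of 0.05 each of these, and IL1A too, would count as detected on 1 array. IL1A read 73.4 units with ABC294640 and 50.2 with vehicle, with detection values of 0.013 and 0.766. Of 7 leukocyte markers with a probe, CD14 was also higher, at 171.3 units with ABC294640 and 95.8 with vehicle, and CD68 had log2 ratios of 2.16 and 0.62 on the 2 of its probes that were detected. ITGAM went the other way, at 73.2 units with ABC294640, where it was not detected, and 140.0 with vehicle. LYZ read 68.8 units with ABC294640, where it was not detected, and 84.1 with vehicle, and its bound gave no difference. PTPRC, CD3E and TYROBP were not detected on either array. The part of these markers in the ligands' ratios was not tested.

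CXCL8, CXCL1 and CXCL2 are neighbours on chromosome 4. RefSeq lists 9 protein-coding genes from CXCL8 to CXCL2, all with a probe named here, and 5 of these genes were detected. CXCL8, CXCL1, CXCL5 and CXCL2 were the 4 that were at least 2-fold higher. PPBP, the platelet chemokine precursor, was detected just above background at 77.8 units with ABC294640 and 89.1 with vehicle, with a log2 ratio of 0.16. CXCL6, PF4V1, PF4 and CXCL3 lie among them and were not detected on either array. The genes higher with ABC294640 were therefore interleaved with neighbours below detection.

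**Figure D4:**
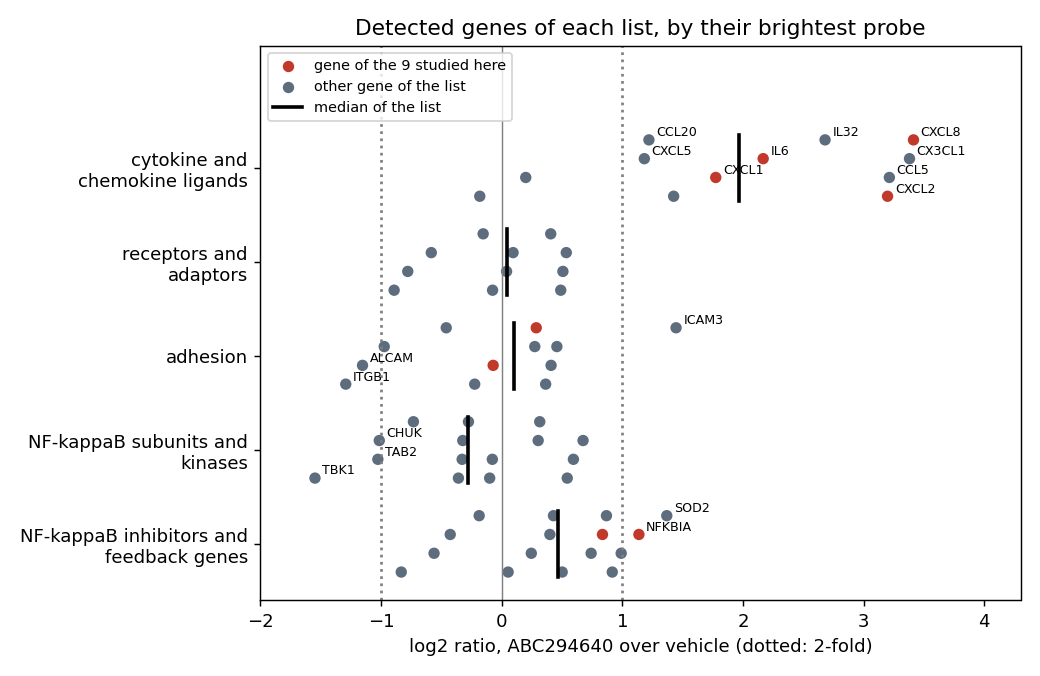
Log2 ratio (ABC294640 over vehicle) of each detected gene in 5 lists, by its brightest probe, with the genes studied here in red, other genes in grey, the list's median as a bar and genes past 2-fold named. The ligands have a median of 1.97 and the other 4 lists lie between -0.28 and 0.47; the unnamed ligand right of the 2-fold line is IL11, whose bound lies below 2-fold.

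The receptors and adaptors that carry signals to NF-kappaB did not follow the ligands. Of 11 detected genes 0 passed 2-fold in either direction, and the median log2 ratio was 0.04. Without normalization between the arrays 3 of the 11 were lower and 0 higher, with a median of -0.42. With median scaling 1 was higher and 0 lower, with a median of 0.385. The medians of all detected probes in these settings were -0.65 and 0.16. TNFRSF1A, the main TNF receptor, read 796.0 units with ABC294640 and 940.5 with vehicle, with a log2 ratio of 0.41. IL6ST read 1003.5 and 2375.3 units on its brighter probe, ABC294640 first, with a log2 ratio of -0.78, and its dimmer probe had -1.27. The ligand-binding receptors, CXCR1 and CXCR2 for the neutrophil attractants and IL6R for IL6, were not detected on either array.

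All 15 genes of the subunits and kinases were detected, 0 of them at least 2-fold higher and 3 at least 2-fold lower, with a median log2 ratio of -0.28. The lower genes were TBK1, an IKK-related kinase, at -1.55, TAB2, an adaptor of the kinase TAK1, at -1.03 and CHUK, the IKK-alpha kinase, at -1.02. TBK1 read 217.0 units with ABC294640 and 916.7 with vehicle, and only TBK1 stayed past 2-fold in all 7 ways of processing. After quantile normalization the DNA-binding subunits were within 2-fold, with log2 ratios of -0.36 for NFKB1, -0.33 for RELA, -0.28 for RELB and 0.67 for REL. NFKB2 had -0.10 and 0.02 on its detected probes. IKBKE, at 0.59, lay above 0 and below 2-fold, as REL did. Without normalization between the arrays REL was at 0.02, IKBKE at 0.06 and RELB at -1.07, where the median of all detected probes was -0.65.

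Among the inhibitors and feedback genes other than NFKBIA and TNFAIP3, 14 genes were detected, 1 was at least 2-fold higher and 0 were lower. SOD2, the mitochondrial superoxide dismutase, was the higher one, at 904.9 units with ABC294640 and 580.5 with vehicle on its brighter probe and a log2 ratio of 1.37, which dropped to 0.68 without normalization between the arrays. That is 1 of 14 genes, close to the 6.99% of all named genes. Just under 2-fold were NFKBIE, an inhibitor of the same family as NFKBIA, at 0.99 and the nuclear cofactor BCL3 at 0.92. ZC3H12A, an RNase that degrades IL6 messenger RNA, was at 0.87. Without normalization between the arrays the log2 ratios of NFKBIE, BCL3 and ZC3H12A dropped to 0.217, 0.139 and 0.165. The median of these 14 genes was 0.41 and turned to -0.20 without normalization between the arrays, where the median of all detected probes was -0.65. BIRC2, a ubiquitin ligase of the TNF receptor complex, had log2 ratios of -0.83 and -1.04 on its 2 probes.

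The adhesion list beyond ICAM1 and VCAM1 had 10 detected genes, with 1 higher, 2 lower and a median of 0.03. ICAM3 read 418.3 units with ABC294640 and 279.3 with vehicle, a log2 ratio of 1.45 that dropped to 0.67 without normalization between the arrays. ITGB1, the beta subunit of the integrin that binds VCAM1, read 6020.5 units with ABC294640 and 13976.3 with vehicle on its brightest probe, with a log2 ratio of -1.29. The log2 ratio was -1.38 on its probe ILMN_1714820 and -0.11 on ILMN_1784454, which was detected with vehicle only. ALCAM, an adhesion molecule of activated leukocytes, read 1670.4 and 4435.9 units in the same order, with a log2 ratio of -1.15. With median scaling the log2 ratios were -0.41 for the brightest ITGB1 probe, -1.10 for ILMN_1714820 and -0.62 for ALCAM. SELE and SELP, the endothelial selectins that start leukocyte rolling, were not detected on either array.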

How the data were processed

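Total RNA of both cultures was labelled with biotin and read on an Illumina Expression BeadChip, per the labels' protocols. The authors deposited 1 signal intensity per probe and array and a detection p-value beside it. The submitters' processing notes name GenomeStudio, with no version or setting. Of 47323 probes, 5 were at 0 on both arrays and were left out. A second deposited table holds normalized intensities of the same arrays. These had the same ranks as the first and the same median, 62.2, on both arrays. Their values were of like size to the deposited signals, and the scale was taken as linear. How they were normalized is not given in the sources used.

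Signals were background-corrected (normexp, controls inferred from the detection values), raised by an offset of 16, put on a log2 scale and quantile-normalized between the arrays in R 4.3.3 with limma 3.58.1. A probe counted as detected with a detection value under 0.01. A probe detected on 1 array counted by a bound against the lowest detected value of the dim array. With 1 array per group there was no test, and genes were counted by size, at 2-fold. Precision is limited by the number of arrays. The steps were tested on simulated data.

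Genes were named from the platform annotation, which gave 30112 probes 1 gene, 8 several and 17198 none; 30073 of the first matched RefSeq. A gene of a list counted by its brightest probe. The members and lists were chosen with earlier results of these data known. The text names all members, further probes of their genes, list genes past 2-fold, at most 8 a list, and some list genes chosen after their values were seen. With 2 arrays, likeness of pattern was not ranked.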

Additional observations from a re-analysis of the deposited data

How the results depend on the processing

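Among the probes studied, 6 were at least 2-fold higher with ABC294640 as reported, and also under median scaling, cyclic loess and no background correction. The count was again 6 with an offset of 50 and with the authors' normalized values. A detection threshold of 0.05 and detection on both arrays, counted among the alternatives below, could only return 6. The 9 detected probes passed either rule and CCL2 passed neither, so the counts and median ratio of the probes studied could not change. The count was 5 without normalization between the arrays, where NFKBIA dropped to a log2 ratio of 0.86. At 3-fold the count was 5, and 2.92% of all detected probes were higher and 1.21% lower. At 1.5-fold, where TNFAIP3 passed, the count was 7, and 17.2% of all detected probes were higher and 18.5% lower. The count lower was 0 in these 10 alternatives. The shares of all detected probes past 2-fold were 3.01% higher and 27.9% lower without normalization and 11.3% and 4.97% with median scaling. With cyclic loess they were 7.72% and 6.84%, and without background correction 4.93% and 4.03%. With an offset of 50 they were 5.1% and 4.26%, and with the authors' normalized values 4.91% and 3.82%. The median log2 ratio of the detected probes studied ranged from 1.10 to 1.91 over 8 alternatives, and from 1.64 to 1.82 relative to all detected probes. ICAM1 was at -0.45 without normalization and VCAM1 at 0.34 with median scaling, against 0.29 and -0.07 as reported. Of further ligands, 3 to 6 were past 2-fold higher and 0 lower. Of subunits and kinases, 1 to 5 were lower. Signal over background limits CCL2 and other undetected genes. No paired analysis was possible because a single array stands for each group.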

Other observations

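The sphingosine kinase pathway had 6 detected genes, with 1 past 2-fold higher in ABC294640-treated cells, 0 past 2-fold lower and a median log2 ratio of -0.02. Over all named genes detected the shares were 6.99% higher and 8.36% lower. SPHK2, the gene of the inhibitor's target, had no probe named here, so its level was not read. SPHK1, the sister enzyme of the inhibitor's target, was the higher gene, at 816.2 intensity units with ABC294640 and 260.2 with vehicle and a log2 ratio of 2.52. The log2 ratio of SPHK1 ran from 1.82 to 2.63 over 7 ways of processing. S1PR1, a receptor for the lipid product of both enzymes, read 156.0 units with ABC294640 and 249.7 with vehicle on its probe ILMN_1653504, and the log2 ratios of its 2 probes were -0.06 and 0.05.

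Among the leukocyte markers 4 of 7 genes with a probe were detected on at least 1 array. The signals of the 7 genes, each by its brightest probe, summed to 1585.4 units with ABC294640 and 1580.7 with vehicle. That sum includes background signal of the undetected PTPRC, CD3E and TYROBP, and it does not measure leukocyte content. In that sum CD68 stands with its probe ILMN_1714861, at 1099.5 units with ABC294640 and 1093.1 with vehicle, while its probe ILMN_2359907 read 1880.0 and 656.6 units in the same order. CD14, a coreceptor for bacterial lipopolysaccharide, had a log2 ratio of 1.90. Of fibroblast or mural markers 3 of 8 were detected, with 0 past 2-fold. ACTA2 read 1549.7 units with ABC294640 and 2175.2 with vehicle. On their detected probes DCN read 377.1 and 675.5 units and LUM 111.3 and 129.4 units, in the same order. COL1A1, COL1A2, COL3A1, PDGFRB and RGS5 were not detected.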
